A study of Mus musculus with 3 samples.

Results

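The fibroblast growth factor (FGF) system was read in cells of mouse epididymal fat as 10 genes: 5 ligands (Fgf1, Fgf2, Fgf7, Fgf10 and Fgf21), 4 receptors (Fgfr1, Fgfr2, Fgfr3 and Fgfr4) and the co-receptor beta-klotho (Klb). The genes were listed by name, and every probe carrying one of these names was taken, which gave 25 of 56605 probes and 10 of 37324 genes. In adipose tissue FGF ligands are released by stromal cells and by adipocytes and bind receptor tyrosine kinases on neighbouring cells, with heparan sulfate as a partner for most ligands. Fgf7 and Fgf10 belong to the family that acts from stroma on epithelium, Fgf10 is needed for the development of fat, and Fgf1 is known as a ligand made by adipocytes under the control of Pparg. Fgf21 is an endocrine ligand with weak affinity for heparan sulfate, which binds its receptor, in fat mainly Fgfr1, only together with Klb.

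Cells were taken with collagenase from the epididymal fat of male C57/BL mice, 20 weeks old by the labels. A first spin at 9 g for 1 s gave a lower phase, which was SVC (the stromal vascular cells), and floating cells. A second spin of the floating cells, at 226 g for 3 min, gave MA (mature adipocytes) on top and SPA (the small adipocytes that can divide) as sediment. SVC and SPA were grown in DMEM to 90% confluence before RNA was taken, whereas no culture is given for MA, so wherever MA is set against SPA or SVC, culture and the kind of cell cannot be told apart. The sample title of MA also carries another date than those of SVC and SPA, which share 1, so what that date stands for cannot be told apart from the group in any ratio of MA, and whether MA came from other mice is not given in the sources used here. The labels name no transgene, and how many mice went into each sample is not given in the sources used here. Labelled cRNA was made from 50 ng of RNA, and 1 array was hybridised per group, so no difference below has a replicate check and none was tested. The comparison of SPA with SVC asks how 2 cultured cell populations of fat differ, and that of MA with SPA asks how small and mature adipocytes differ. The comparison of MA with SVC shares 1 array with each of the others.

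Levels are given as the log2 of the processed signal of a probe over the signal at the 75th percentile of its array, so that 0 is that percentile. The signal at the percentile was 366 to 439, 58.6% to 61.4% of the spots were well above background and 0 were saturated. The lowest level well above background was -5.15 to -4.95, and probes spotted repeatedly on an array had a median SD of 0.04 to 0.05 on the log2 scale, which covers the array but not the cells. Each gene was represented by the probe whose level, averaged over the arrays, was highest. A difference was called at 5-fold or more, provided that the higher of the levels compared was well above background. Where the dimmer array was not well above background, the ratio is a lower bound ("at least"). Such a bound holds only for the background correction used. In bulk samples such as these, fewer cells of a type and less RNA per cell cannot be told apart.

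The following probes are shown as examples of places in the coding sequence where ligands, the main receptor and the co-receptor were read. Only the Fgf2 probe is the one that represents its gene. Fgf10, Fgfr1 and Klb are represented by other probes, which are not printed. All probes shown are 60 bases, 5′ to 3′, on the plus strand of mm9. The Fgf2 and Fgf10 probes lie at chr3:37303539-37303598 and chr13:119577931-119577990. Capitals mark the 29 of 60 bases (48.3%) that both share when they are set side by side without gaps, in a stretch of the FGF core.
Fgf2: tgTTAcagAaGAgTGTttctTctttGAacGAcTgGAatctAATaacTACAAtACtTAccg
Fgf10: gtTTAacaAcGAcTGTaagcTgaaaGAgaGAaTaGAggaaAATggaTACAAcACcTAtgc
The Fgfr1 probe at chr8:26682852-26682911 reads the kinase domain, and its capitals mark the codons of the motif with which the activation loop of a kinase opens.
Fgfr1: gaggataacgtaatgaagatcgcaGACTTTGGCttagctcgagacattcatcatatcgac
The Klb probe at chr5:65770402-65770461 has no part in capitals.
Klb: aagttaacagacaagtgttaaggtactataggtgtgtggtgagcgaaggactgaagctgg

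Fgf21 is controlled largely at its promoter, so the 250 bases before its start are shown, from RefSeq in GRCm38.p6 at chr7:45615491-45615740 on the minus strand. Capitals mark ATTGCATCA, which is TGATGNAAT read on the other strand (the element that Atf4 binds in genes of the amino acid response, here 140 to 132 bases before the start), and CACGTG (an E-box, 50 to 45 bases before the start).
Fgf21: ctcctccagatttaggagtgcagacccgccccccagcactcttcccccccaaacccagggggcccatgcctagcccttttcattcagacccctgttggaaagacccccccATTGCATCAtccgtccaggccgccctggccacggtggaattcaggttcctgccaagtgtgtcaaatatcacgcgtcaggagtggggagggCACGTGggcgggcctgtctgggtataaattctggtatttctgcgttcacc
Both strands were searched, CACGTG reads the same on both, and the motifs do not overlap here. Of 32851 promoters of this length, 0.816% held TGATGNAAT and 6.02% held CACGTG. Another element searched, AGGTCA of the nuclear receptors, was in 14.0% of all promoters and, of the 8 members with an entry, in that of Fgf7. These matches are letters in a window, and no binding was measured.

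Fgf1, Fgf21 and Klb were higher and Fgf7 was lower in MA than in SPA. These 4 of 10 members passed 5-fold, 3 of them higher in MA, where 5.47% of the 24101 genes read were called, and 1 lower, where 3.97% were called (9.44% in either direction). The same 4 genes passed between MA and SVC, with 5.72% of 23596 genes called higher and 3.96% called lower (9.68% in all). Between SPA and SVC 0 of the 9 members well above background on either array passed, against 0.32% of 22808 genes called higher, 0.351% called lower and 0.671% in all. At 2-fold, Fgfr3 joined the genes higher in MA than in SPA and Fgf2 those lower, which made 4 higher and 2 lower, with 15.7% and 18.0% of all genes called (33.7% in all). Between MA and SVC it was again 4 higher and 2 lower, with 17.2% and 18.0% of all genes called (35.3% in all). At 2-fold 0 members were called between SPA and SVC, against 3.89% of all genes called higher, 3.24% called lower and 7.14% in all. The ratio of Fgf21 is only a bound there. The median log2 ratio of the members measured on both arrays was -0.16 for MA over SPA and -0.05 for SPA over SVC, and that of all genes was -0.08 and 0.05. Among the 25 probes, SVC and SPA each had 17 well above background and MA had 21, and 4 were dim on every array. On all 3 arrays, 8 of the 10 members passed that mark.

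**Figure D1:**
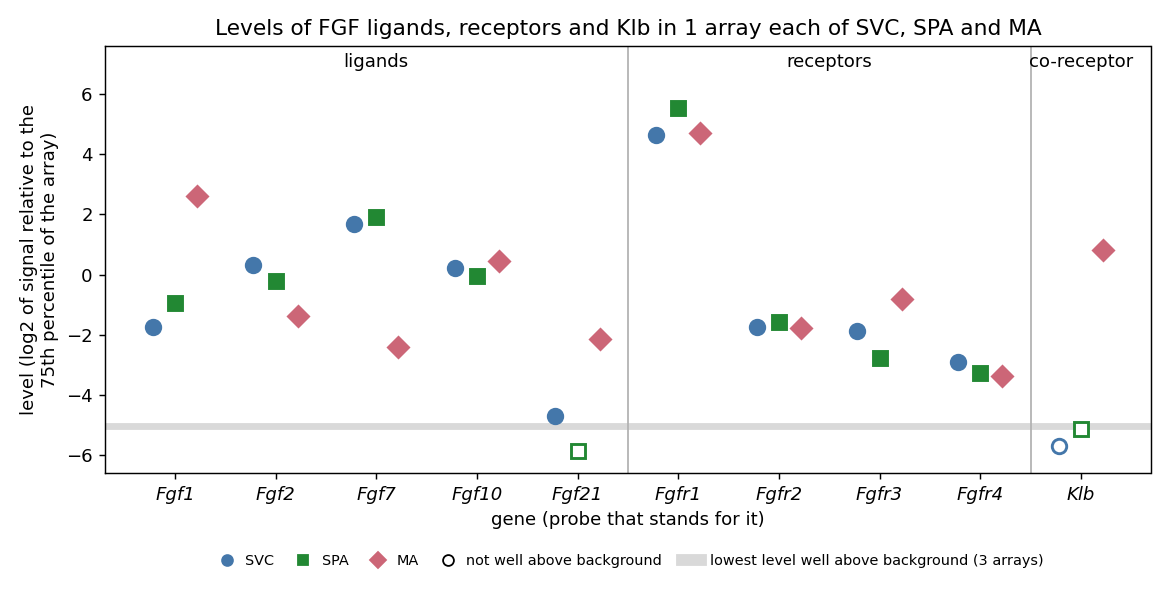
Level of each of the 10 genes at its standing probe in SVC, SPA and MA (log2 of signal over the 75th percentile of the array; 1 array per group, no error bars; open symbols are not well above background, and the grey line is the lowest level that is). Fgf1, Fgf21 and Klb stand highest in MA and Fgf7 lowest there, while SVC and SPA lie within 2-fold of each other for every gene well above background on both.

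Of the ligands, Fgf1 was the member with the widest range among those well above background on all arrays. Its level was -1.76 in SVC, -0.94 in SPA and 2.59 in MA. MA was 11.6-fold above SPA and 20.4-fold above SVC, and SPA was 1.76-fold above SVC, so SVC and SPA lay close together and MA apart from both. A second Fgf1 probe read -4.44, -3.98 and -0.74, which puts MA 9.48-fold above SPA. The third, near the 5′ end of the transcript (position 222), was well above background only in MA, at -3.61, and was at least 2.88-fold above SPA. All 3 Fgf1 probes thus put MA above both cultured populations.

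Fgf7, the keratinocyte growth factor of stromal cells, went the other way. Its single probe (chr2:125916134-125916193, position 1884 of the transcript) read 1.67 in SVC, 1.92 in SPA and -2.40 in MA. Both cultured populations were above the 75th percentile of their arrays, and MA was below it but still well above background. MA was 20.0-fold below SPA and 16.8-fold below SVC, and SPA was 1.20-fold above SVC. Only 0.502% of the genes read were as low or lower in MA over SPA.

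Fgf2, the basic FGF made by many mesenchymal cells, was also lowest in MA. The probe shown above read 0.31 in SVC, -0.21 in SPA and -1.37 in MA. MA was 2.23-fold below SPA and 3.21-fold below SVC, which is short of 5-fold. A second probe, whose bases lie on the genome from chr3:37247934-37295153 and so cross a splice junction, read -0.45, -0.71 and -1.46 and gave the same order, with MA 1.69-fold below SPA. The log2 ratio of MA over SPA was -0.91 after normexp and -0.96 with the median over probes, both under 2-fold. The third Fgf2 probe was dim on every array.

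Fgf10, the ligand needed for fat development, hardly differed. Its standing probe read 0.21 in SVC, -0.06 in SPA and 0.44 in MA, and the probe shown above read -2.44, -2.58 and -2.30. MA was 1.41-fold above SPA by the first and 1.21-fold by the second, with SPA lowest by both. Fgf7 and Fgf10, close relatives that bind the same splice form of Fgfr2, therefore had different patterns over the 3 arrays, 1 lower in MA and the other within 2-fold. No test of that difference is possible with 1 array per group.

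Fgf21 could be told from background in SVC and MA and not in SPA. Its single probe (chr7:52869305-52869364 on the minus strand, position 842) read -4.72 in SVC, -5.85 in SPA and -2.14 in MA. MA was at least 7.97-fold above SPA and 5.97-fold above SVC, so MA was the high array and both cultured populations were at or near background. The level in SVC was only just above the lowest level that counts as well above background there, -4.95. SPA was at least 1.34-fold below SVC with the background correction used, but the log2 ratio of SPA over SVC was only -0.15 after normexp. After normexp, another way to correct the background, the log2 ratio was 1.26 for MA over SPA and 1.11 for MA over SVC, both under 5-fold, so the call for Fgf21 depends on how the background was removed. In the regulators of Fgf21 and Klb, Atf4, whose element is marked in the promoter above, read 5.73 in SVC, 6.03 in SPA and 5.99 in MA.

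Fgfr1, the main FGF receptor of fat, was well above background at all 4 of its probes on all 3 arrays. The standing probe (chr8:26685072-26685131, position 3906) read 4.66 in SVC, 5.53 in SPA and 4.70 in MA. SPA was highest, 1.84-fold above SVC, and MA was 1.78-fold below SPA and within 1.03-fold of SVC. The local background of this probe was marked as outlying in SPA and MA. The kinase domain probe shown above, without that mark, read -0.45, 0.43 and -0.32 and gave the same order, with SPA 1.84-fold above SVC and MA 1.68-fold below SPA. A probe further 5′ (chr8:26680165-26680224) read -0.62, 0.14 and -0.86, again with SPA highest. The probe nearest the 3′ end, at position 4920, differed: it read -2.87, -2.21 and -1.57, with MA 1.56-fold above SPA and 2.47-fold above SVC. All 4 probes had SPA above SVC, by 1.58-fold to 1.84-fold, and 3 of 4 had MA below SPA.

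Fgfr2, of which 1 splice form binds Fgf7 and Fgf10, was level. Its standing probe read -1.74 in SVC, -1.57 in SPA and -1.78 in MA, and MA was 1.15-fold below SPA. The other probe, at position 1466, was dim on every array, so the splice forms were not read apart.

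Fgfr3, a receptor best known in cartilage, gave different orders at its probes. Its standing probe read -1.88 in SVC, -2.78 in SPA and -0.82 in MA. MA was 3.87-fold above SPA and 2.08-fold above SVC, and SPA was 1.86-fold below SVC. A second probe, over 235 bases of genome at chr5:34077856-34078090, read -5.33 in SVC, where it was dim, -4.74 in SPA and -4.82 in MA. By this probe SPA was at least 1.16-fold above SVC and MA was 1.06-fold below SPA, so SPA was lowest by the first probe and not by the second. The third probe was dim on every array, so the difference in Fgfr3 between MA and SPA rests on 1 probe. With the median over probes the log2 ratio of MA over SPA was 0.94, under 2-fold.

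Fgfr4, best known in liver, where it pairs with beta-klotho for the ileal FGF, had no direction that its probes shared. The standing probe read -2.90 in SVC, -3.26 in SPA and -3.37 in MA. A probe at position 3002 read -4.16, -4.42 and -4.27, and one at position 3058, which overlaps it at the ends, read -3.56, -3.40 and -2.84. MA over SPA was 1.08-fold lower by the first, 1.11-fold higher by the second and 1.47-fold higher by the third. Every Fgfr4 ratio of MA over SPA was under 1.5-fold in size.

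Klb, the co-receptor without which Fgf21 does not engage its receptor, was well above background only in MA. Its standing probe (chr5:65774926-65774985, position 3122) read -5.71 in SVC, -5.13 in SPA and 0.83 in MA. MA was 62.3-fold above SPA, which is the plain ratio to the dim SPA level, since that level lay just over the lowest counted there. MA was at least 55.1-fold above SVC. The second probe, the sequence of which is given above, read -7.00, -7.23 and -4.32, so that MA alone was again well above background, at least 1.76-fold above SPA. Between SPA and SVC no ratio can be given, since both were dim at both probes. With the normexp correction the log2 ratio of MA over SPA was 3.34, in place of 5.96, which is still past 5-fold. The size of the Klb ratio thus depends on how the background was removed. Fgfr1, which pairs with Klb in fat, was thus read in all 3 populations and Klb in MA alone.

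**Figure D2:**
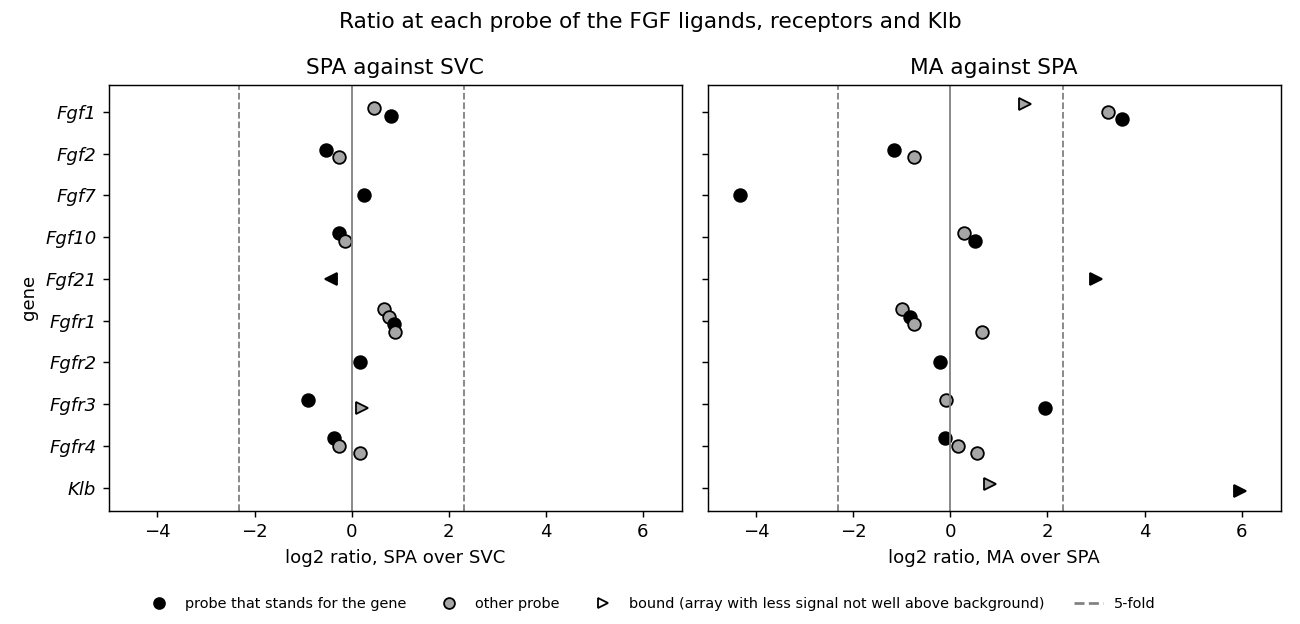
Log2 ratio of MA over SPA and of SPA over SVC at every member probe that could be read (black is the probe that stands for the gene, grey the others, triangles are bounds, dashed lines mark 5-fold). The 3 Fgf1 probes lie on 1 side in MA over SPA, the 4 Fgfr1 probes on both sides of 0, and the Fgfr4 probes scatter around 0.

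**Figure D3:**
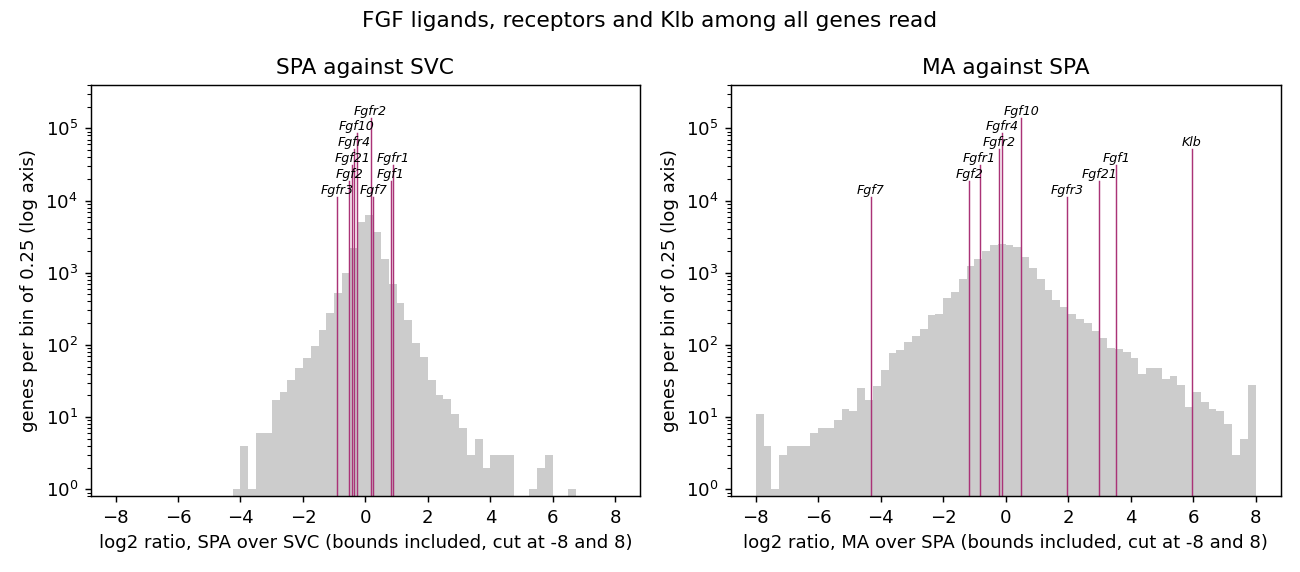
Number of genes by log2 ratio for all genes with a ratio (grey bars in bins of 0.25 on a log axis; bounds included, values over 8 in size drawn in the end bins), in MA against SPA and in SPA against SVC. All 10 members are marked in MA against SPA, and all but Klb, which has no ratio there, in SPA against SVC. Fgf7 lies in the lower tail and Fgf1, Fgf21 and Klb in the upper tail of MA against SPA. In SPA against SVC the 8 members measured on both arrays are all under 2-fold. Fgf21 is a bound there, at least 1.34-fold lower in SPA, so its ratio may be larger. Some still lie away from the middle there: 4.09% of genes were as low as Fgfr3. As high as Fgfr1 and Fgf1 were 5.04% and 5.89%.

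The pattern of 3 members over the 3 arrays was set beside that of 19970 other genes well above background on all of them, by the Euclidean distance over the pair of log2 ratios (SPA over SVC and MA over SPA). For Fgf1, 12 genes lay within 0.25, nearest Col15a1 (distance 0.03), Higd1b (0.09) and C1qtnf12 (0.09). For Fgf7, 6 genes lay within 0.25, among them Epb41l3 (0.08) and Igf2bp3 (0.18). For Fgfr3, 35 genes lay within 0.25, nearest Dmpk, Igsf10 (both 0.08) and Pdgfd (0.10). With 3 arrays the pattern has only these ratios, and a short distance is a description.

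Of 17 other FGF ligands, 11 were well above background in MA or SPA. At 5-fold 2 were higher and 0 lower in MA, beside 5.47% and 3.97% of all genes. Fgf9, a ligand of mesenchymal and mesothelial tissues, read -3.59 in SVC, -5.21 in SPA and -1.89 in MA, at least 9.48-fold higher in MA than in SPA. Fgf11, an intracellular family member that is not secreted, read -3.68, -3.33 and -0.53, 6.98-fold higher in MA. Fgf18, a ligand of cartilage and lung mesenchyme, was highest in SVC, at 2.35, and read 1.44 in SPA and 0.68 in MA. Fgf23, the phosphate hormone of bone, read 3.57, 3.38 and 3.05 at its single probe, with no second probe to set beside it. Fgf6, a muscle ligand, read 0.39, 0.48 and 0.28, so both lay within 2-fold over the arrays. The median log2 ratio of this list for MA over SPA was 0.05.

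Of 10 cofactors and binding proteins, 9 could be read between MA and SPA. At 5-fold 1 was higher and 1 lower in MA, beside 5.47% and 3.97% of all genes. Fgfrl1, a receptor that binds FGF but lacks a kinase domain, read 1.43 in SVC, 2.49 in SPA and 5.46 in MA, 7.81-fold higher in MA than in SPA and 2.10-fold higher in SPA than in SVC. Its levels thus ran in the order SVC, SPA and MA. Fgfbp3, a carrier that frees FGF from the matrix, read -1.11, -0.78 and -3.61, 7.08-fold lower in MA than in SPA. Flrt2, a membrane protein of a family that binds FGF receptors, was 3.67-fold lower in MA than in SPA and 5.37-fold lower than in SVC. Kl, the co-receptor for Fgf23, was dim on every array. Nptn and Fibp lay within 2-fold over the arrays.

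The adaptors link the receptor to Ras, ERK and phospholipase signalling. Of 12 adaptor genes, 12 were well above background on all arrays and 0 passed 5-fold in any comparison, beside 9.44% of all genes for MA against SPA. Their median log2 ratio for MA over SPA was 0.09. At 2-fold, 2 were higher in MA than in SPA, Plcg1 and Gab1, and 2 lower, Shc1 and Crkl, so that 4 of 12 passed, beside 33.7% of all genes. Plcg1, the phospholipase that FGF receptors bind directly, was 2.50-fold higher and Shc1 2.49-fold lower. Frs2, the docking protein of the receptors, read 1.73, 1.16 and 0.45 in SVC, SPA and MA. Ptpn11, the phosphatase that Frs2 recruits, read 4.53, 4.52 and 4.91, and Grb2, the link to Ras, read 2.91, 3.27 and 2.42.

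Of 18 feedback inhibitors and target genes of the ERK pathway, 17 could be read between MA and SPA. At 5-fold 5 were higher and 2 lower in MA, beside 5.47% and 3.97% of all genes. Spry1, an inhibitor induced by FGF, read 1.17 in SVC, 0.38 in SPA and 3.05 in MA, 6.34-fold higher in MA than in SPA. Spry4 read -4.05, -4.52 and -1.53, 7.90-fold higher in MA. Both inhibitors were lowest in SPA. The immediate-early genes Egr1, Fos and Ier2, which many stimuli induce within minutes, were 30.5-fold, 37.7-fold and 18.9-fold higher in MA than in SPA. Dusp4, a phosphatase of ERK, read 2.13, 2.96 and 0.40, 5.90-fold lower in MA. Etv4, a transcription factor induced by FGF, read 1.63, 0.56 and -1.86, 5.36-fold lower in MA than in SPA, and its relative Etv5 was 3.95-fold lower than in SPA and 5.10-fold lower than in SVC. Dusp6, the phosphatase most used as a readout of FGF signalling, read 2.87, 2.35 and 3.28, so MA was 1.91-fold above SPA. The members of this list therefore moved in both directions, and the list does not have 1 sign. Its median log2 ratio was 0.83 for MA over SPA and -0.47 for SPA over SVC, beside -0.08 and 0.05 for all genes.

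Of 28 genes of heparan sulfate proteoglycans and the enzymes that build or trim the chains, 27 could be read between MA and SPA. At 5-fold 2 were higher and 2 lower in MA, beside 5.47% and 3.97% of all genes. Gpc3, a membrane proteoglycan, read -1.13 in SVC, -2.43 in SPA and 1.37 in MA, 13.9-fold higher in MA than in SPA. Sulf2, which removes sulfate groups from the chains, was 5.20-fold higher, whereas its relative Sulf1 was 3.85-fold lower. Sdc1, a syndecan, was 8.33-fold lower in MA than in SPA. Hs6st2, a sulfotransferase, read 1.03, -0.84 and -4.65, 14.0-fold lower in MA than in SPA and 3.66-fold lower in SPA than in SVC. Hspg2, a proteoglycan of basement membranes, read 3.96, 3.69 and 4.83. The median log2 ratio of this list for MA over SPA was -0.52.

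At 5-fold 5.47% of all genes were higher and 3.97% lower in MA than in SPA. Of 8 regulators of Fgf21 and Klb, 3 were higher and 0 lower. They were Ppara, which induces Fgf21 in fasted liver, Pparg, which does so in fat, and the coactivator Ppargc1a. Ppara read -4.22, -3.13 and 0.71 in SVC, SPA and MA, 14.3-fold higher in MA than in SPA, and Ppargc1a was at least 9.28-fold higher. Pparg was 5.88-fold higher and is also an adipocyte marker below. Rxra, their partner, was 2.26-fold higher in MA than in SPA, and Mlxipl, the carbohydrate sensor, 1.32-fold higher. Between SPA and SVC 0 genes of these 6 pathway lists passed 5-fold, beside 0.671% of all genes. Fgfbp1, a carrier like Fgfbp3, came nearest at that comparison among the genes named, at least 4.67-fold higher in SPA.

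**Figure D4:**
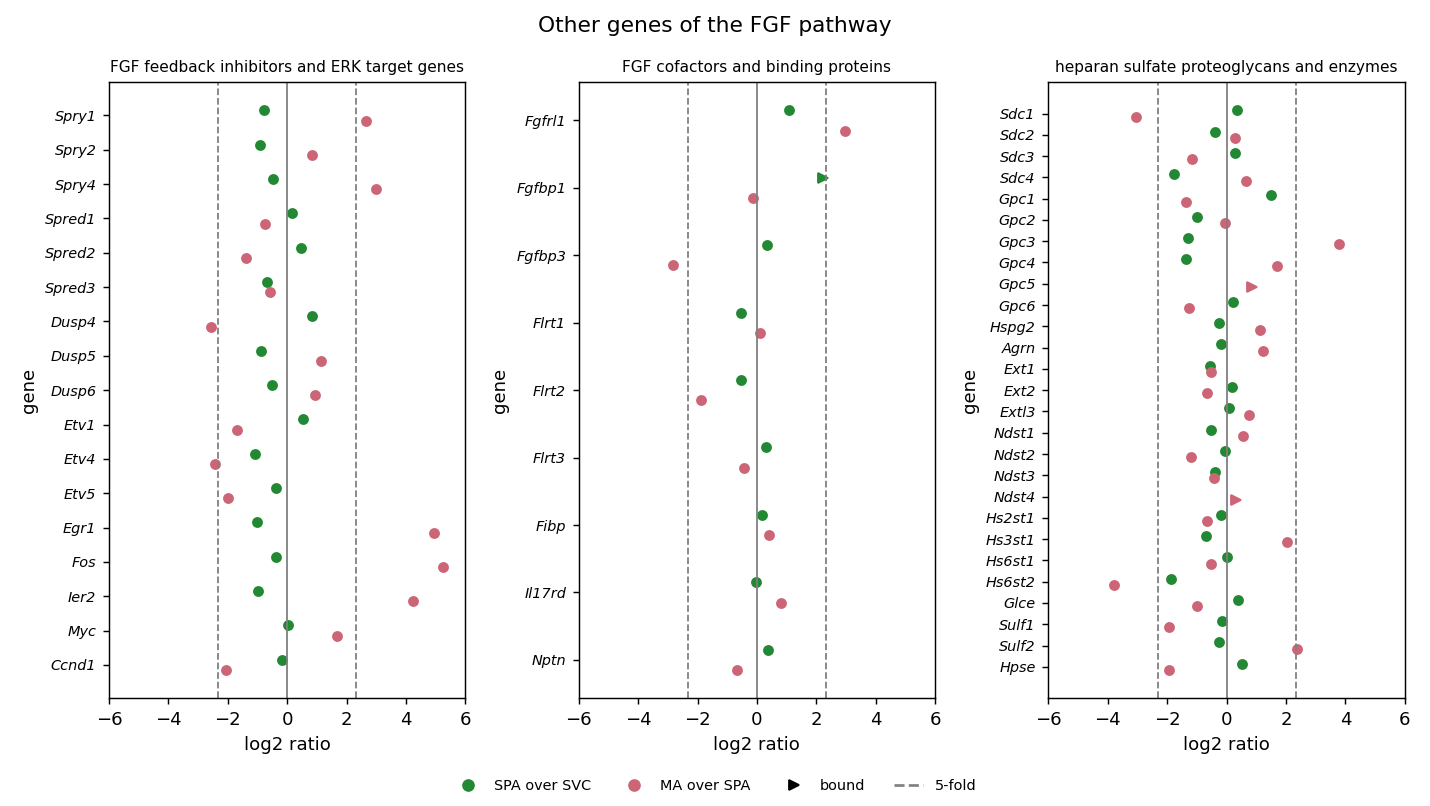
Log2 ratio of SPA over SVC (green) and of MA over SPA (red) for the genes of 3 pathway lists that could be read (points are genes at their standing probe, triangles bounds, dashed lines 5-fold). In MA over SPA the genes of each list cross the lines on both sides, and in SPA over SVC all lie between them.

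The labels were set against cell type markers. Of all genes, 5.47% were called higher and 3.97% lower in MA than in SPA. In SPA against SVC 0.32% were called higher and 0.351% lower. Of 10 adipocyte markers (Adipoq, Lep, Plin1, Retn, Cidec, Fabp4, Pparg, Lipe, Cfd and Slc2a4), 9 were at least 5-fold higher in MA than in SPA and 7 higher in SPA than in SVC. Lep, Pparg and Lipe were short of 5-fold in SPA against SVC, at 1.19-fold, 2.90-fold and 4.16-fold higher. The log2 of their summed level was 3.23 in SVC, 6.33 in SPA and 11.6 in MA, and Adipoq and Plin1 were dim in SVC. Markers of other cells also moved with MA against SPA. Of 8 endothelial markers (Pecam1, Cdh5, Kdr, Tek, Tie1, Flt1, Emcn and Vwf), 7 were higher in MA, with log2 summed levels of 1.81, 2.51 and 5.48, and none was dim. Of 6 red cell markers that could be read (Hba-a1, Hba-a2, Hbb-bt, Hbb-b1, Alas2 and Slc4a1), 5 were higher, with log2 summed levels of -1.34, -1.22 and 9.49. Of 8 mesothelial markers (Msln, Upk3b, Upk1b, Wt1, Krt8, Krt18, Krt19 and Lrrn4), 4 were higher in MA than in SPA and 5 lower in SPA than in SVC, with log2 summed levels of 6.17, 4.16 and 4.74.

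Of 10 progenitor and fibroblast markers, Cd34, Col3a1 and Lum were higher in MA than in SPA and none lower at 5-fold, and Pdgfra, Pdgfrb, Dlk1, Ly6a, Thy1, Col1a1 and Dcn were short of it. Of those short of it, Dcn, Dlk1 and Thy1 were 3.90-fold, 2.42-fold and 1.94-fold higher in MA. The median log2 ratio of the list for MA over SPA was 1.12. In SPA against SVC only Dlk1 passed, 5.03-fold lower in SPA. The receptors Pdgfra and Pdgfrb were lower in MA. Pdgfra read 3.01 in SVC, 2.54 in SPA and 0.49 in MA, 4.14-fold lower in MA than in SPA and 5.76-fold lower than in SVC, and Pdgfrb was 2.68-fold lower in MA than in SPA. The log2 summed levels of the list were 8.23, 7.37 and 8.84, with the matrix genes Dcn (7.50) and Col3a1 (6.98) making up most of the sum in MA. Of 8 macrophage markers, Cd68 was lower in MA than in SPA, and Adgre1, Csf1r, Lyz2, Itgam, Cd14, Mrc1 and Ptprc were short of 5-fold. The log2 summed levels of the macrophage list were 9.13, 9.28 and 7.63. Of 7 smooth muscle and pericyte markers, Rgs5 and Cspg4 were higher and Acta2 and Tagln lower in MA than in SPA. Mcam, Cnn1 and Myh11 were short of 5-fold in that comparison. Against SVC, however, Cnn1 was 13.5-fold lower in SPA and 31.5-fold lower in MA. The log2 summed levels of the list were 9.54, 8.46 and 6.67. Of 8 epididymal epithelium markers, most were dim: SVC and MA each had 2 well above background and SPA had 1, and 0 passed in any comparison. Their log2 summed levels of -0.97, -1.28 and -1.03 rest mainly on Rnase10 (-1.36, -1.65 and -1.36), the only one well above background on all 3 arrays. These markers differ between the same arrays as Fgf1, Fgf7, Fgf21 and Klb, and their part in those results was not tested.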

How the data were processed

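RNA of SVC, SPA and MA was hybridised to 1 Agilent 1-colour array each, on 1 slide and in 1 scan. The authors deposited spot intensity files from Agilent Feature Extraction 10.7.3.1, in which the processed signal is corrected for background and spatial trend. They also deposited a ratio, which was 1 constant per array times the processed signal with a relative departure of 1.37e-06 at most. Spots marked as outliers (75 to 129 per array) were left out. The processed signal was scaled to the 75th percentile of each array and put on the log2 scale. The bound for a dim probe was the higher of its own level and the lowest level of a probe well above background on that array. Because a group has 1 array, no test was run, and it is this number of arrays that limits precision.

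Of 56605 named probes, 32994 were matched to RefSeq by accession and 1535 took another name, none of them a member. Positions are those of the array annotation (mm9), and exons and UTRs of that build were not used here. No sequence is printed for Fgf1. The members and lists were chosen with earlier results of these data known. The genes named are all members, each gene of a pathway list past 5-fold and up to 3 more by mean level, every marker, the nearest genes by pattern, and a few others named after their values were seen (Kl, Frs2, Plcg1, Gab1, Crkl, Sulf1, Fgfbp1, Myc and Gpc4). Results for some genes under this rule are not reported here. Alternatives were normexp with an offset of 50, quantile normalization, another percentile, the deposited ratios, no filter, a filter on both arrays, other probe rules, spots without outlying background and a 2-fold threshold. The script that reads ratios was tested on simulated data. The normexp correction used limma 3.58.1 in R 4.3.3. All else used numpy 2.4.6, pandas 2.3.3 and matplotlib 3.10.9 in Python 3.11.15.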

Additional observations from a re-analysis of the deposited data

How the results depend on the processing

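The count of members past 5-fold, 4 for MA against SPA and 4 for MA against SVC, was 3 in both comparisons with normexp, where Fgf21 was under 5-fold. With probes required to be well above background on each array compared it was 2 for MA against SPA, Fgf1 and Fgf7, since Fgf21 and Klb are bounds there, and 3 for MA against SVC. With a 2-fold threshold it was 6 in both. For SPA against SVC it was 0 under every alternative run. Fgf1 stayed at 3.19 to 3.61, Fgf7 at -4.33 to -3.55 and Klb at 3.34 to 6.04 in log2 of MA over SPA. The 2-fold calls for MA against SPA were lost for Fgfr3 (0.94 with the median over probes) and Fgf2 (-0.91 with normexp, -0.96 with the median over probes), and for MA against SVC for Fgfr3 (0.80 with normexp, 0.59 with the median over probes). Fgfr4 changed sign with the median over probes and with the probe of the largest ratio (0.55). Over all genes normexp gave 1221 calls in place of 2275 for MA against SPA, 1223 in place of 2284 for MA against SVC, and 45 in place of 153 for SPA against SVC, with 66.7% higher in place of 47.7%. No filter on dim probes gave 446 for SPA against SVC, with 64.3% higher. The 2-fold threshold gave 8127, 8318 and 1628. The signal over background limits what can be read of Fgf21 and Klb in SVC and SPA. No array could be left out. No paired analysis was possible because each group holds 1 array.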

Other observations

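Some genes of the lists that were short of 5-fold had patterns that also differ between the arrays. Ccnd1, a cyclin of the G1 phase, read 3.57 in SVC, 3.38 in SPA and 1.31 in MA, and Myc, a growth regulator, read 0.27, 0.31 and 1.99, so these ERK targets ran in opposite directions. Gpc1, a membrane proteoglycan, was highest in SPA, at 4.72, with 3.24 in SVC and 3.36 in MA, while Gpc4 was lowest in SPA, at 0.46, with 1.84 in SVC and 2.16 in MA. Dcn, a matrix proteoglycan of fibroblasts, read 6.04, 5.53 and 7.50. These genes were picked for this section after their values were seen, though Ccnd1, Gpc1 and Dcn also fall under the rule for naming genes. None has a replicate, and no cause was tested.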
